A study of Mus musculus with 6 samples.

Results

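The axon guidance ligands and receptors are the gene families that steer growing axons and, in the adult brain, stay on synapses, axons and glial membranes. They were chosen by gene symbol: the semaphorins of classes 3 to 7, the plexins, the neuropilins Nrp1 and Nrp2, the Eph receptors and ephrins, Slit1 to Slit3, Robo1 to Robo4, the netrins and netrin-Gs, Unc5a to Unc5d, Dcc and Neo1. The rule found 73 of 32531 gene entries, made up of 37 ligands, 35 receptors and 1 antisense transcript, Plxna4os1.

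Midbrain tissue came from adult mice of the Lhx5-TRAP line DT154, in which EGFP fused to the ribosomal protein Rpl10a is made under the control of Lhx5, a LIM homeodomain gene, so that polysomes of the cells carrying the tag can be pulled out with antibodies to EGFP (translating ribosome affinity purification, TRAP). All animals carried the transgene and were untreated controls. The groups were 3 IP libraries, made from the immunopurified RNA, and 3 libraries whose titles say Input, from the same tissue. Another label of the Input libraries reads unbound, which leaves unsettled whether they hold the homogenate or what remained after the pull-down. No label says that replicates were separate animals. The p-values therefore measure the spread between these libraries only, which may be technical.

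Guidance cues act in ligand and receptor pairs. Secreted class 3 semaphorins bind neuropilins that signal through plexins, while membrane-bound semaphorins bind plexins directly. Ephrin-A ligands are held in the membrane by a GPI anchor and ephrin-B ligands span it, and each class binds mainly the Eph receptors of its own letter. Slits repel axons through Robo receptors. Netrins attract axons through Dcc and repel them through the Unc5 receptors, and the related netrin-Gs stay on the membrane and bind the synaptic proteins Lrrc4c and Lrrc4 in place of Dcc. In the midbrain these systems are known for the ephrin-A map of retinal axons in the superior colliculus and for the guidance of dopamine axons by netrins, Slits and semaphorins.

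Each library held between 38058239 and 45841499 gene counts, where 3 counts correspond to 0.0688 to 0.0741 CPM (counts scaled to library size by the TMM method), a floor that covers counting error only. The guidance genes took 0.244% ± 0.0559 of the gene counts in IP, against 0.262% ± 0.0288 in Input (SD, n = 3 each). Lhx5 had 46.8, 56.0 and 49.1 CPM in IP against 3.92, 3.81 and 2.20 in Input. Rpl10a, which the tag is fused to, had a log2 fold change of -0.15. Markers of glia were low in IP: all 12 oligodendrocyte and all 10 astrocyte genes tested fell, while 9 of 10 pan-neuronal genes rose. Libraries stood apart in markers of other regions and cell types. Purkinje and cerebellar markers summed to 1423 CPM in IP replicate 2, against 418 and 448 in IP replicates 1 and 3. Of these, Pvalb had 280, 451 and 340 CPM in IP replicates 1 to 3, Car8 22.4, 555 and 20.9, and Pcp2 0.167, 77.9 and 0.117. Striatal markers summed to 1040 CPM in Input replicate 3, against 291 and 149 in Input replicates 1 and 2. Input replicate 3 was also high in ependymal and choroid plexus markers, at 1371 CPM against 377 and 26.2 in Input replicates 1 and 2, and low in dopamine neuron markers, at 182 CPM against 466 and 413. Input replicate 2 was high in the cerebellar genes Cbln3 and Neurod1. Cbln3 had 19.2 CPM there against 0.769 and 0.790 in Input replicates 1 and 3, and Neurod1 25.2 against 9.21 and 9.63. All 6 dopamine neuron markers tested fell in IP, with a median of -1.89. The parts of these in the guidance values were not tested.

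The guidance genes did not move as a block: 15 rose in IP, 16 fell and 37 did not pass. The rises were moderate and included Sema4f, Nrp2, Efna5, Slit2, Ntn4 and Unc5a. The 15 rises ran from 0.49 (Ntng1) to 1.23 (Ntn4) on the log2 scale. The 10 pan-neuronal markers had a median of 0.83 and ran from -0.17 (Syt1) to 1.53 (Nefl). The part of a general neuronal shift in the rises was not tested. The falls included larger changes, those of Plxnb3, Sema3d and Unc5b. Of the 73 entries, 68 were tested, and 66 of them were above the low-count filter in both groups. Efna1 was above it in 2 IP and 3 Input libraries, and Robo4 in 0 IP and 3 Input libraries. Robo4 was thus tested only through the group where it is high, and its place among the 16 falls is no independent result. The 15 that rose made up 22.1% of those tested, beside 26% of all 17197 genes tested, and the 16 that fell made up 23.5%, beside 27.9% of all genes (edgeR's quasi-likelihood test, adjusted p under 0.05). These shares lay near the background in both directions. With a replicate block, which pairs IP and Input libraries by number, 19 guidance genes rose and 19 fell. Over all genes the block gave 4811 higher and 4879 lower. IP replicate 2 and Input replicate 3 stood apart in the summed markers given above. Without both, 8 guidance genes rose and 17 fell. Without Input replicate 2 alone 10 fell, and without IP replicate 3 alone 21 rose and 15 fell. With upper-quartile scaling, the share of calls that were upward over all genes was 38.1%, against 48.2% here, and the guidance genes gave 13 higher and 19 lower.

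Tested against a 2-fold change, 0 guidance genes passed upward and 4 downward, beside 2.25% and 12.9% of all genes. At an unadjusted p under 0.05, 0 guidance genes exceeded 2-fold upward as well. The 4 genes past 2-fold downward, 5.88% of those tested, were Plxnb3, Sema3d, Unc5b and Efnb3. Leaving out Input replicate 1 or Input replicate 2 left 2 genes past 2-fold downward, and leaving out IP replicate 2 gave 6. Leaving out IP replicate 3 gave 1 gene past 2-fold upward. The median log2 fold change was -0.09 over the guidance genes and -0.01 over all genes, and the guidance median lay between -0.27 and 0.07 over the alternatives tried. Of 34 ligands, 10 (29.4%) rose and 7 (20.6%) fell, with a median of 0.18 (0.03 with upper-quartile scaling and 0.05 by library totals). Of 34 receptors, 5 (14.7%) rose and 9 (26.5%) fell, with a median of -0.19. Both pairs of shares stand beside 26% and 27.9% over all genes, and the difference between ligands and receptors was not tested. The counts by family given below stand beside the same 2 shares. Because bulk RNA was measured, fewer cells of a type and less RNA per cell cannot be told apart in any of these values. IP over Input also sets RNA pulled down with polysomes against RNA that was not. No pull-down from animals without the tag was among the libraries. RNA carried over into IP from untagged cells therefore cannot be told apart from RNA of tagged polysomes.

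**Figure D1:**
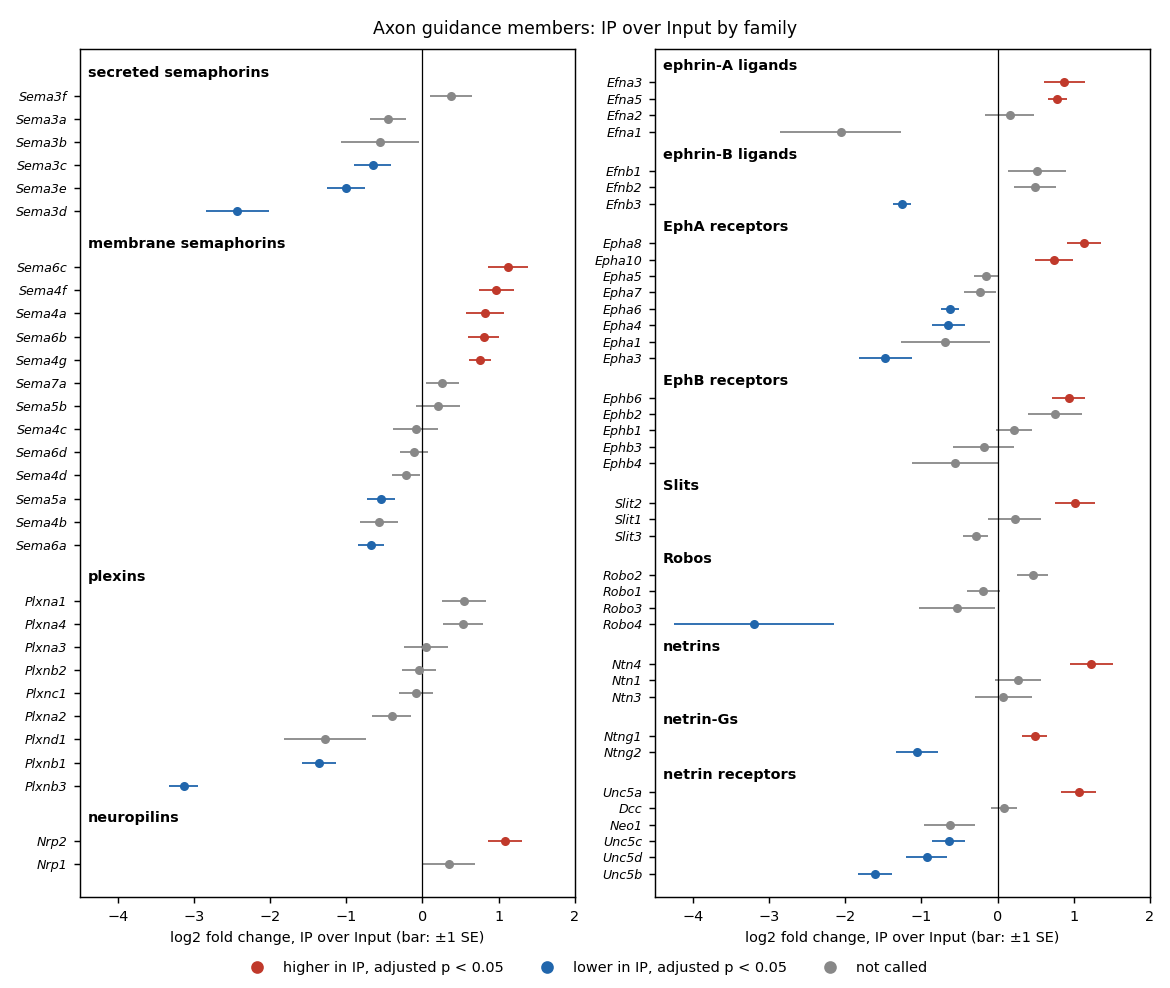
Log2 fold change of IP over Input (x axis, bars ±1 SE) for the 68 tested guidance genes (y axis), grouped by family, with rises in red, falls in blue and genes that did not pass in grey. The class 4 and class 6 semaphorins hold 5 of the 15 rises, and among genes above the low-count filter in both groups the largest falls are those of Plxnb3 and Sema3d at -3.14 and -2.44.

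To show the genes with the clearest calls at their starts, the RefSeq promoter windows of the pair with the smallest adjusted p in each direction, among guidance genes with a window in the table used, are given (GRCm38.p6, 250 bases before to 50 after the start, written 5′ to 3′ on the gene's strand). Efna5 lies on the minus strand at chr17:62881268-62881567, Sema4g on the plus strand at chr19:44989094-44989393, Plxnb3 on the plus strand at chrX:73756853-73757152 and Unc5b on the minus strand at chr10:60831532-60831831. Capitals mark matches, on either strand, to the GC box (GGGCGG or CCGCCC) and to the core of the Sox family (CATTGT or ACAATG); the homeodomain core TAATTA, its own reverse complement, was searched too and had 0 matches in these windows.
Efna5: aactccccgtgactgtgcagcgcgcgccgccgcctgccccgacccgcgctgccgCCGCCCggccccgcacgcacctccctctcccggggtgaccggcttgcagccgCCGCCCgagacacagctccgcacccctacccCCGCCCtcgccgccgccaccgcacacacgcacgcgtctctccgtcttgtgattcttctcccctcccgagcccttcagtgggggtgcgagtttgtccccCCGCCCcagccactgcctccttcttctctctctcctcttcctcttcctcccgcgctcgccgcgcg
Sema4g: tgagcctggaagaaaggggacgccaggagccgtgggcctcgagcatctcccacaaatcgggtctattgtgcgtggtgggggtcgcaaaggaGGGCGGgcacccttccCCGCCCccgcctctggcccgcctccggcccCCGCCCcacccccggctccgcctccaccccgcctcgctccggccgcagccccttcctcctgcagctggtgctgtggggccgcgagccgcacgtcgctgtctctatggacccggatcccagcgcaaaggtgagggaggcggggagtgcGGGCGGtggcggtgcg
Plxnb3: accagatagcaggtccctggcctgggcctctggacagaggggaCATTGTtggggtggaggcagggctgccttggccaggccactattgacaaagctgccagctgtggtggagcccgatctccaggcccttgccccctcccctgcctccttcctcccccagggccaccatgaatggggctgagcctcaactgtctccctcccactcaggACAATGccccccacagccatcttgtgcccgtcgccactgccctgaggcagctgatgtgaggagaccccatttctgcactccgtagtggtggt
Unc5b: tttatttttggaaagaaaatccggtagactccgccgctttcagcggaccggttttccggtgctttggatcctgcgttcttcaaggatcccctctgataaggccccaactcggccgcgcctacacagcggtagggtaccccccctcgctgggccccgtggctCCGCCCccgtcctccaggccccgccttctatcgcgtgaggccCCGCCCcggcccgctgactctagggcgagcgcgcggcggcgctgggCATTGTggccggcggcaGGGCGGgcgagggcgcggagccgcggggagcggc
The Efna5 and Sema4g windows each held 4 GC boxes and 0 Sox cores. The Plxnb3 window held 0 GC boxes and 2 Sox cores, with 4 CG pairs against a median of 7 over all promoters, and the Unc5b window held 3 GC boxes, 1 Sox core and 36 CG pairs. Over all 27025 promoter windows, 35.9% held GGGCGG, 12.8% held CATTGT and 5.31% held TAATTA. A match is only a stretch of letters and says nothing about binding.

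Among the semaphorin ligands, the membrane-bound and the secreted classes were counted apart. Of the 13 membrane-bound semaphorins (classes 4 to 7), 5 (38.5%) rose, 2 (15.4%) fell and 6 did not pass (median log2 fold change 0.21). Of the 6 secreted class 3 semaphorins tested, 0 rose, 3 (50%) fell and 3 did not pass (median -0.60). Over all genes tested, 26% rose and 27.9% fell, and classes of this size give coarse shares. The median of the membrane-bound class was 0.06 with upper-quartile scaling, which also moved the median of all genes to -0.17. The difference between the classes was not tested.

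Sema4f, a class 4 semaphorin found mainly in brain, had 85.9, 82.8 and 70.9 CPM in IP replicates 1 to 3, against 34.8, 57.0 and 30.3 CPM in the Input replicates. It had the highest CPM of the risen class 4 genes, and its lowest IP library lay above its highest Input library (log2 fold change 0.97, SE 0.23, adjusted p 0.00657). Sema4g, a ligand of plexin-B2 in the developing cerebellum, had 42.7, 39.3 and 38.8 CPM in IP against 27.9, 22.9 and 20.7 in Input, groups that did not overlap (log2 fold change 0.76, SE 0.14, adjusted p 0.00228). Sema4a, known also from the immune system and the retina, had 38.0, 38.9 and 23.9 CPM in IP against 21.9, 22.2 and 12.9 in Input. Its replicate 3 was the lowest library of each group, and the groups did not overlap (log2 fold change 0.82, SE 0.25, adjusted p 0.0242). Sema4a no longer passed without IP replicate 1 or 2 or Input replicate 3, with library totals alone, or without both IP replicate 2 and Input replicate 3 (adjusted p 0.0508 to 0.185), and Sema4f no longer passed without those 2 libraries together (adjusted p 0.0537).

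The class 6 semaphorins, which bind class A plexins, moved in both directions. Sema6b had 62.8, 56.7 and 38.7 CPM in IP against 33.2, 33.2 and 24.2 in Input, with every IP library above every Input library (log2 fold change 0.80, SE 0.20, adjusted p 0.0101). Sema6c, expressed at a lower level, had 12, 10.8 and 11.0 CPM in IP against 5.02, 7.13 and 3.38 in Input and rose by 1.12 on the log2 scale (SE 0.27, adjusted p 0.00728). Sema6a, the ligand of plexin-A2 and plexin-A4, had 67.3, 74.2 and 51.6 CPM in IP against 114, 112 and 84.1 in Input, with every IP library below every Input library (log2 fold change -0.68, SE 0.17, adjusted p 0.00958). Sema6d, a ligand of plexin-A1, had 156, 134 and 99.4 CPM in IP against 161, 141 and 117 in Input, overlapping groups and a log2 change of -0.11 (SE 0.18, adjusted p 0.641). Sema6b no longer passed without IP replicate 2, or without both IP replicate 2 and Input replicate 3 (adjusted p 0.0566 and 0.105).

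Set against each other within a library, per kb of exon, Sema6b and Sema6c together were 2.07 ± 0.227 times Sema6a in IP, against 0.719 ± 0.0308 times in Input (SD, n = 3 each). The 3 ratios of IP, from 1.91 to 2.33, did not overlap the 3 of Input, from 0.696 to 0.754. An exact permutation test of 3 libraries against 3 (two-sided) gave p = 0.1, the smallest this design allows. Sema6b and Sema6c were above Input and Sema6a below it in every IP library, so this outcome was fixed by the choice of genes. The test therefore adds no support to the calls. A ratio within a library does not depend on the scaling between libraries.

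Sema5a, a semaphorin with thrombospondin repeats that binds plexin-B3, had 123, 99.7 and 77.7 CPM in IP against 166, 149.6 and 123 in Input. Its highest IP library lay just below its lowest Input library, 123 CPM each when rounded (log2 fold change -0.55, SE 0.18, adjusted p 0.0321). It no longer passed without IP replicate 2 or 3 or Input replicate 1 or 2 (adjusted p 0.0800 to 0.114). Sema7a, the GPI-anchored semaphorin that binds plexin-C1 and integrins, was the most abundant semaphorin per kb of exon, at 18.6 ± 2.26 CPM per kb in IP and 15.5 ± 4.72 in Input. Sema7a did not pass, with 69.1, 60.5 and 54.3 CPM in IP against 61.6, 58.4 and 33.2 in Input. Sema4b, Sema4c, Sema4d and Sema5b also did not pass, at log2 fold changes of -0.57, -0.09, -0.22 and 0.21. Sema4b passed as lower with a replicate block, at -0.57 (adjusted p 0.0195), and also with upper-quartile scaling, without IP replicate 2, and without both IP replicate 2 and Input replicate 3 (adjusted p 0.0394, 0.0307 and 0.0377).

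The secreted semaphorins were rare in both groups, summing to 33.9 ± 6.37 CPM in IP, against 55.0 ± 6.05 in Input (SD, n = 3 each). Sema3d (chr5:12383385-12588948, plus strand), a secreted cue for axons and vessels, had 1.86, 0.684 and 0.863 CPM in IP replicates 1 to 3, against 7.21, 6.74 and 4.54 CPM in the Input replicates. Even its highest IP library was below its lowest Input library, and it was 5.41-fold lower (log2 fold change -2.44, SE 0.41, adjusted p 0.00146; adjusted p 0.0134 against a 2-fold change). Sema3e, the ligand of plexin-D1, had 14.4, 11.6 and 7.53 CPM in IP against 21.8, 27.1 and 18.3 in Input, groups that did not overlap (log2 fold change -1.01, SE 0.25, adjusted p 0.00902). Sema3c, a ligand of both neuropilins, had 7.34, 6.69 and 4.41 CPM in IP against 10.6, 10.7 and 7.65 in Input (log2 fold change -0.65, SE 0.24, adjusted p 0.0496). Its call was the weakest of the 31 and was lost without IP replicate 2 or 3 or Input replicate 1 or 2 (adjusted p 0.0814 to 0.146).

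Sema3a, the classic neuropilin-1 ligand, had 7.81, 6.69 and 7.0 CPM in IP against 7.74, 8.28 and 13.4 in Input, and Sema3f, the neuropilin-2 ligand, had 8.17, 8.13 and 6.23 CPM in IP against 7.28, 6.35 and 3.75 in Input. Neither passed, with log2 fold changes of -0.45 (SE 0.24, adjusted p 0.140) and 0.37 (SE 0.27, adjusted p 0.272). Sema3b was near the filter, at 0.478, 0.488 and 1.21 CPM in IP against 0.962, 1.33 and 0.913 in Input, and also did not pass. Sema3g was not tested, with 6, 0 and 8 counts in IP, against 3, 4 and 0 counts in Input.

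On the receptor side of this system, Nrp2 was the receptor that rose. Nrp2, the co-receptor for Sema3f and Sema3c, had 98.1, 99.7 and 54.4 CPM in IP replicates 1 to 3, against 37.0, 43.0 and 38.9 CPM in the Input replicates. IP replicate 3 was nearer to the Input libraries than to IP replicates 1 and 2, and still above all of them (log2 fold change 1.08, SE 0.22, adjusted p 0.00347). Nrp1, the co-receptor for Sema3a, had 33.5, 54.8 and 21.3 CPM in IP against 27.5, 39.3 and 19.6 in Input, overlapping groups and a log2 change of 0.34 (SE 0.35, adjusted p 0.435). Per kb of exon, Nrp2 was 2.01 ± 0.466 times Nrp1 in IP, against 1.22 ± 0.380 times in Input (SD, n = 3 each), ranges that overlapped (exact permutation test, two-sided, p = 0.2).

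Of the 9 plexins, the signalling receptors of semaphorins, 0 rose, 2 fell and 7 did not pass. Plxnb3 (chrX:73757090-73772514, plus strand), the receptor of Sema5a, had 2.44, 2.20 and 2.03 CPM in IP replicates 1 to 3, against 21.6, 20.9 and 16.2 CPM in the Input replicates. Its IP libraries lay close together and far below Input, and it was 8.80-fold lower (log2 fold change -3.14, SE 0.19, adjusted p 1.58e-05; adjusted p 6.03e-05 against a 2-fold change). Plxnb1, the receptor of Sema4d, had 5.78, 8.74 and 4.97 CPM in IP against 17.7, 17.2 and 15.1 in Input, again without overlap (log2 fold change -1.36, SE 0.23, adjusted p 0.00133). Plxnb2, the third class B plexin, had 18.6, 20.8 and 12.3 CPM in IP against 17.1, 21.5 and 14.9 in Input and a log2 change of -0.05 (SE 0.22, adjusted p 0.865). Per kb of exon, Plxnb3 was 0.159 ± 0.0353 times Plxnb2 in IP, against 1.32 ± 0.175 times in Input (SD, n = 3 each), with no overlap (exact permutation test, two-sided, p = 0.1, the smallest this design allows). Plxnb3 was taken for this ratio with its fall known, so the separation is no added support.

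The fall of Plxnb3 stood beside those of the glial markers. The 12 oligodendrocyte markers summed to 440, 346 and 507 CPM in IP replicates 1 to 3 and to 5302, 4462 and 4777 CPM in the Input replicates, and the list had a median log2 fold change of -3.50. The 10 astrocyte markers summed to 214, 203 and 145 CPM in IP and to 1642, 1642 and 1248 CPM in Input, with a median of -3.11. Of the 8 markers of oligodendrocyte precursors 7 fell, with a median of -3.30, and of 10 microglial markers 9 fell, with a median of -3.57. Marker genes with 0 counts in every IP library were not seen in these lists. The part of these cell types in the falls of Plxnb3, Sema3d, Unc5b or the other guidance genes was not tested.

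The class A plexins, which serve the neuropilins and class 6 semaphorins, were the abundant ones, together 356 ± 106 CPM in IP, against 288 ± 57.9 in Input (SD, n = 3 each). Plxna4 had 216, 203 and 121 CPM in IP against 138, 150.0 and 85.2 in Input, and Plxna1 had 115, 124 and 68.6 CPM in IP against 77.4, 89.8 and 43.4 in Input. In each group replicate 3 was the lowest for both genes, and the groups overlapped. Their log2 fold changes were 0.54 (SE 0.26, adjusted p 0.113) and 0.55 (SE 0.29, adjusted p 0.144), which did not pass. With a replicate block, which compares each IP library with the Input library of its number, both passed, at 0.53 (adjusted p 0.00305) for Plxna4 and 0.57 (adjusted p 0.00243) for Plxna1. Both also passed without IP replicate 3 (adjusted p 0.0245 and 0.0452). In the annotation, 10.7% of Plxna1 exon bases lay on an antisense gene, Gm26811, whose reads could not be told apart.

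Plxna2 and Plxna3 did not pass, at -0.41 (SE 0.25, adjusted p 0.201) and 0.05 (SE 0.29, adjusted p 0.899). Plxnc1, the Sema7a receptor, had 62.4, 71.5 and 36.5 CPM in IP against 60.2, 55.4 and 65.2 in Input and also did not pass. Plxnd1, the Sema3e receptor known from vessels and some neurons, had 4.92, 5.10 and 1.03 CPM in IP against 7.55, 6.26 and 13.0 in Input. Each IP library was below each Input library, yet the spread was wide and edgeR did not call it (log2 fold change -1.28, SE 0.54, adjusted p 0.0737). DESeq2 and limma-voom called Plxnd1 lower (adjusted p 0.0218 and 0.0403).

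**Figure D2:**
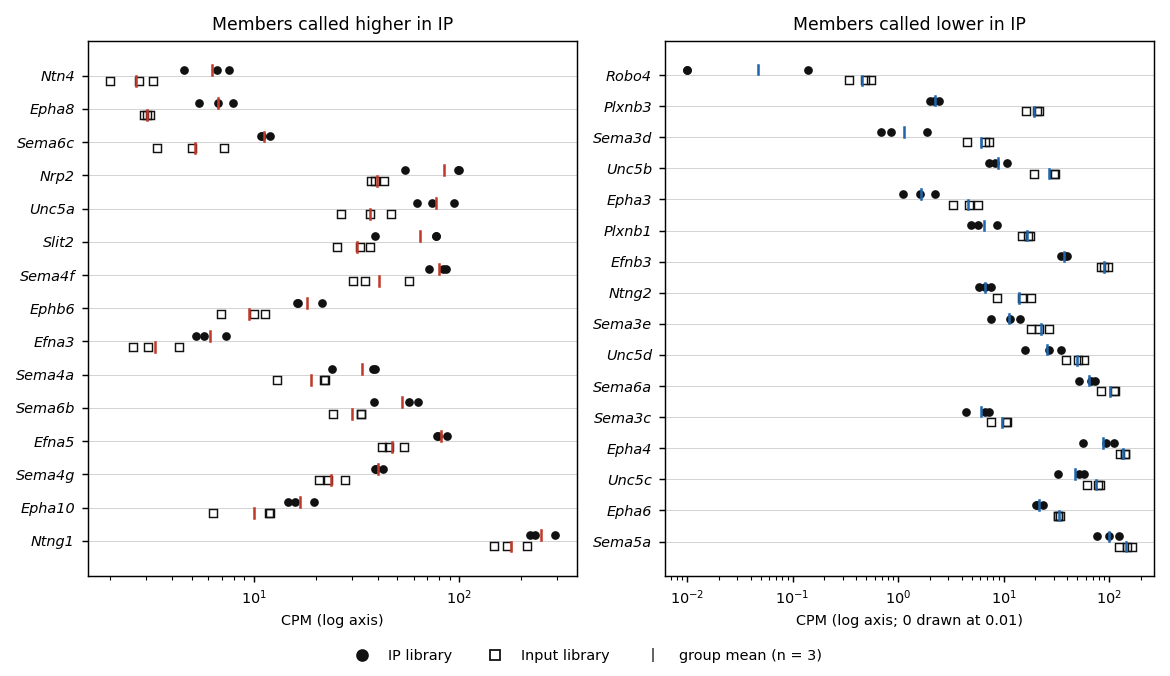
Level in CPM (log axis) of each called guidance gene in the 3 IP libraries (filled circles) and the 3 Input libraries (open squares), with the group mean as a bar; the left panel shows the 15 genes that rose and the right panel the 16 that fell. The genes shown were picked by their calls, so the lack of overlap between their groups is no separate result. The share of all genes without overlap is not given. Of the genes above the low-count filter in both groups Plxnb3 stands farthest apart. The place of Robo4, with 2 IP libraries at 0 counts, is set by drawing 0 at 0.01.

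In the ephrin system, 2 of the 7 ligands tested rose, Efna5 and Efna3, and 1 fell, Efnb3. Efna5 (chr17:62604184-62881317, minus strand), the GPI-anchored cue of topographic maps, had 86.9, 78.3 and 78.8 CPM in IP replicates 1 to 3, against 45.4, 42.0 and 54.0 CPM in the Input replicates. The groups were far from overlapping (log2 fold change 0.79, SE 0.13, adjusted p 0.00112), and Efna5 had the smallest adjusted p of the 15 rises. Efna3 had 7.34, 5.23 and 5.71 CPM in IP against 2.57, 4.31 and 3.06 in Input (log2 fold change 0.88, SE 0.27, adjusted p 0.0229), with 14.1% of its exon bases on the antisense gene Gm15998. The call of Efna3 was lost without IP replicate 1, Input replicate 1 or Input replicate 3, or without both IP replicate 2 and Input replicate 3 (adjusted p 0.0623 to 0.0802).

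Efnb3 (chr11:69554092-69560205, minus strand), a transmembrane ephrin known as a midline barrier for axons, had 38.1, 39.6 and 34.8 CPM in IP replicates 1 to 3, against 96.8, 88.8 and 83.5 CPM in the Input replicates. All 3 IP libraries were less than any Input library by a wide margin, and the gene was 2.39-fold lower (log2 fold change -1.26, SE 0.11, adjusted p 7.72e-05; adjusted p 0.0420 against a 2-fold change). Per kb of exon, Efnb3 was the most abundant guidance gene of Input at 28.2 ± 2.11 CPM per kb, and it was the ninth in IP at 11.8 ± 0.774. Efna5 was 1.72 ± 0.135 times Efnb3 in IP, against 0.418 ± 0.0799 times in Input (per kb, SD, n = 3 each), with no overlap (exact permutation test, two-sided, p = 0.1, the smallest this design allows). Efna5 was above Input and Efnb3 below it in every IP library, so this separation was fixed by the choice of genes.

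Efnb2, the ephrin-B shared by neurons and arteries, had 48.1, 42.2 and 21.7 CPM in IP against 21.0, 26.9 and 31.8 in Input. Its IP replicates 1 and 2 lay above Input and IP replicate 3 within it, and the log2 fold change of 0.49 (SE 0.28, adjusted p 0.172) did not pass, though it did without IP replicate 3 (adjusted p 0.010). Efnb1 also passed without IP replicate 3 (adjusted p 0.0333) and not with it, at 0.51 (SE 0.38, adjusted p 0.285). Efna2 had a log2 change of 0.16 (SE 0.32, adjusted p 0.699). Efna1, tested because of its Input level, had 17, 13 and 4 counts in IP and 56, 79 and 11 in Input, and did not pass at -2.06 (SE 0.79, adjusted p 0.0545). Efna1 passed as lower in 7 of 14 alternatives: with upper-quartile scaling, library totals, no filter, DESeq2 or a replicate block (where it stood at -1.95, adjusted p 0.0268), without Input replicate 3, and without both IP replicate 2 and Input replicate 3. Its log2 fold changes over the 14 lay between -2.69 and -1.56, and the adjusted p between 0.0169 and 0.194. Efna4 was not tested, with 4, 1 and 3 counts in IP and 19, 13 and 8 in Input.

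Among 8 EphA receptors tested, 2 rose, 3 fell and 3 did not pass, and the median log2 fold change was -0.43. Epha8, an EphA receptor known from the superior colliculus, had 6.67, 7.91 and 5.44 CPM in IP replicates 1 to 3, against 3.13, 3.03 and 2.94 CPM in the Input replicates. It was rare, but every IP library was above Input (log2 fold change 1.14, SE 0.22, adjusted p 0.00302). Epha10, an Eph receptor without kinase activity, had 19.7, 14.7 and 16.0 CPM in IP against 11.8, 11.9 and 6.34 in Input (log2 fold change 0.74, SE 0.25, adjusted p 0.0361). Epha10 lost its call without any 1 of the IP replicates or Input replicate 3, without both IP replicate 2 and Input replicate 3, under upper-quartile scaling and under scaling by library totals (adjusted p 0.0556 to 0.108).

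Epha4, which binds ephrins of both classes, was the EphA receptor with the highest CPM, at 111, 93.7 and 56.7 CPM in IP against 143, 142 and 126 in Input. IP replicate 3 was the lowest, and no IP library reached the Input range (log2 fold change -0.65, SE 0.22, adjusted p 0.0338). The call of Epha4 was lost without IP replicate 2 or any 1 Input replicate, or without both IP replicate 2 and Input replicate 3 (adjusted p 0.0523 to 0.0894). Epha6 had 20.8, 23.7 and 20.1 CPM in IP against 32.5, 34.2 and 32.9 in Input, with little spread in either group (log2 fold change -0.63, SE 0.12, adjusted p 0.00280). Epha3, a receptor of Efna5, had 2.22, 1.12 and 1.61 CPM in IP against 3.32, 5.73 and 4.74 in Input, with no overlap (log2 fold change -1.47, SE 0.35, adjusted p 0.00701).

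Epha5 and Epha7, the abundant EphA receptors that did not pass, had log2 fold changes of -0.15 (SE 0.16, adjusted p 0.438) and -0.23 (SE 0.21, adjusted p 0.375). Epha1 was near the filter and did not pass (-0.69). Epha2 was not tested, with 32, 9 and 1 counts in IP and 7, 14 and 7 in Input.

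Of the 5 EphB receptors, 1 rose, 0 fell and 4 did not pass. Ephb6, which also lacks kinase activity, had 21.6, 16.3 and 16.4 CPM in IP against 10, 11.4 and 6.94 in Input, groups without overlap (log2 fold change 0.94, SE 0.22, adjusted p 0.00642). Ephb1, the most abundant EphB receptor, had 69.2, 72.5 and 41.9 CPM in IP against 59.9, 59.8 and 38.3 in Input, overlapping groups and a log2 change of 0.22 (SE 0.24, adjusted p 0.475). Ephb2 had 16.8, 19.3 and 9.70 CPM in IP against 9.71, 12.3 and 5.01 in Input and did not pass at 0.76 (SE 0.35, adjusted p 0.0996). Ephb2 passed with a replicate block, at 0.79 (adjusted p 0.00365), and without IP replicate 3 (adjusted p 0.0386). Ephb3 and Ephb4 stood at -0.19 and -0.56 and did not pass.

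**Figure D3:**
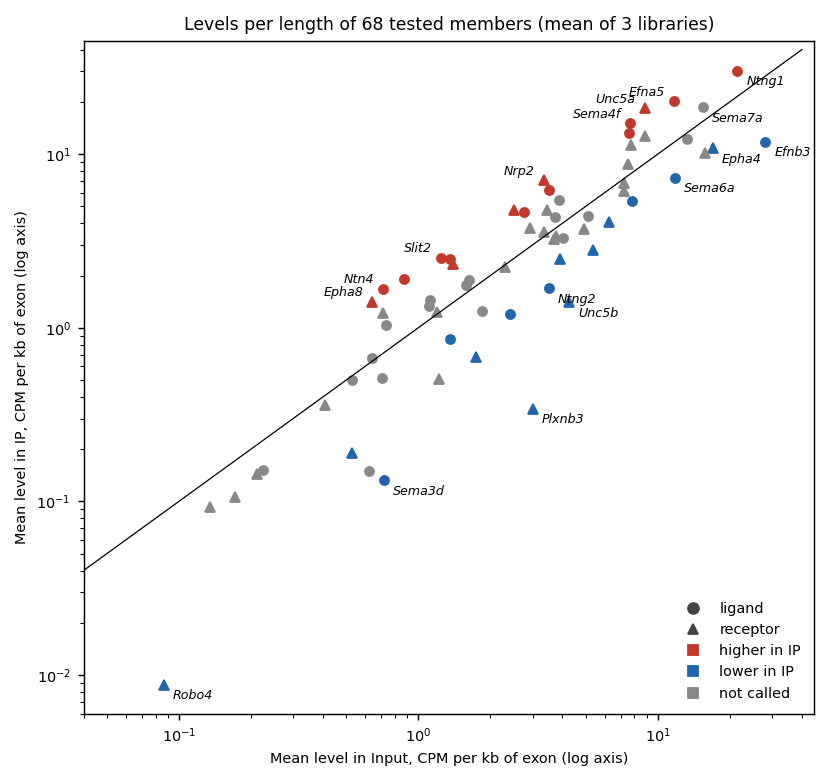
Mean level of each tested guidance gene in IP (y axis) against Input (x axis), in CPM per kb of exon on log axes, with the line of equal levels; circles are ligands, triangles receptors, and colours give the call. Ntng1, Efna5 and Unc5a lie above the line near the top, Efnb3 and Epha4 below it, and Plxnb3 and Sema3d far below it.

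Of the Slit and Robo genes, 1 Slit rose and 1 Robo fell, Robo4, which passed the low-count filter through Input alone. Slit2, the secreted repellent for Robo1 and Robo2, had 77.3, 76.8 and 38.7 CPM in IP replicates 1 to 3, against 33.1, 36.8 and 25.3 CPM in the Input replicates. IP replicate 3 lay near Input, just above its highest library (log2 fold change 1.02, SE 0.26, adjusted p 0.0112). Without IP replicate 2, and without both IP replicate 2 and Input replicate 3, Slit2 did not pass (adjusted p 0.0651 and 0.123). Slit1 had 32.3, 32.9 and 11.9 CPM in IP against 22.9, 25.9 and 17.1 in Input and Slit3 had 22.9, 17.3 and 19.5 CPM in IP against 21.3, 27.7 and 23.9 in Input, both with overlapping groups. Their log2 fold changes were 0.22 (SE 0.35, adjusted p 0.610) and -0.29 (SE 0.16, adjusted p 0.155). Slit1 passed as higher without IP replicate 3 (adjusted p 0.0319), and Slit3 passed as lower with upper-quartile scaling (adjusted p 0.0400) and with library totals alone (adjusted p 0.0463). Per kb of exon, Slit2 was 0.780 ± 0.294 times Slit3 in IP, against 0.313 ± 0.0594 times in Input (SD, n = 3 each). These ratios depend on the exon lengths used, 25433 bases for Slit2 and 6067 for Slit3. In CPM, Slit2 lay above Slit3, at 64.3 ± 22.1 against 19.9 ± 2.81 in IP. In Input they had 31.7 ± 5.84 and 24.3 ± 3.26 CPM.

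Robo2 and Robo1, the Slit receptors of neurons, did not pass. Robo2 had 96.0, 90.3 and 56.0 CPM in IP against 59.7, 64.8 and 51.4 in Input, with IP replicates 1 and 2 above Input and IP replicate 3 within it (log2 fold change 0.46, SE 0.20, adjusted p 0.0822). Robo2 passed with a replicate block, at 0.43 (adjusted p 0.0244), and it also passed without IP replicate 3 (adjusted p 0.00386). Robo1 had 68.3, 55.1 and 36.6 CPM in IP against 65.0, 63.8 and 53.2 in Input and a log2 change of -0.19 (SE 0.21, adjusted p 0.483). Robo3, the receptor of crossing axons in the embryo, was near the filter at 0.638 ± 0.225 CPM in IP and 0.923 ± 0.315 in Input.

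Robo4, the Robo of endothelial cells, had 0, 0 and 6 counts in IP and 23, 21 and 14 counts in Input. It was called lower (adjusted p 0.0309), and its fitted log2 fold change of -3.20 depends on the prior count. Robo4 passed the low-count filter through its Input counts alone, so the direction of its call was set by the filter. The call was lost without IP replicate 1, IP replicate 2 or any Input replicate, and without both IP replicate 2 and Input replicate 3 (adjusted p 0.0528 to 0.0920). The 10 endothelial markers summed to 11.2, 9.79 and 8.30 CPM in IP and to 28.8, 33.2 and 19.3 CPM in Input. Of these, 8 fell, with a list median of -2.43. Without Input replicate 2, 5 fell. With the stricter filter (minimum count 50) 5 fell as well. That filter leaves rare markers untested, such as Cldn5 at 0.962, 1.17 and 0.247 CPM in Input. The part of endothelial RNA in the fall of Robo4 was not tested.

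The netrin family showed opposed calls between closely related members. Both the netrin-Gs and the Unc5 receptors held calls in opposite directions. Ntng1 (chr3:109780040-110144011, minus strand), the GPI-anchored netrin-G1 of thalamic and other axons, had 292, 221 and 233 CPM in IP replicates 1 to 3, against 214, 148 and 170.2 CPM in the Input replicates. The groups were separated narrowly, by IP replicate 2 and Input replicate 1 (log2 fold change 0.49, SE 0.17, adjusted p 0.0350). Ntng1 was the most abundant guidance gene of IP per kb of exon, at 30.1 ± 4.60 CPM per kb against 21.5 ± 4.12 in Input. Ntng2, the second netrin-G, had 6.67, 5.91 and 7.58 CPM in IP against 15, 18.4 and 8.64 in Input, with IP below Input (log2 fold change -1.06, SE 0.27, adjusted p 0.0106). Per kb of exon, Ntng1 was 18 ± 3.16 times Ntng2 in IP, against 6.78 ± 2.83 times in Input (SD, n = 3 each). The 3 IP ratios, 14.9 to 21.2, were all above the Input ratios, 3.89 to 9.54 (exact permutation test, two-sided, p = 0.1, the smallest this design allows). With Ntng1 above Input and Ntng2 below it in every IP library, this separation was fixed by the choice of genes. The rise of Ntng1 was lost under upper-quartile scaling, under scaling by library totals and without IP replicate 1 or 2, Input replicate 2 or 3, or both IP replicate 2 and Input replicate 3 (adjusted p 0.0586 to 0.123). The synaptic partner of Ntng1, Lrrc4c, rose by 0.64 (SE 0.10, adjusted p 0.00108), with 226, 257 and 240.0 CPM in IP against 148, 156 and 161 in Input. The partner of Ntng2, Lrrc4, had 54.3, 55.1 and 49.2 CPM in IP against 49.5, 62.4 and 41.4 in Input and did not pass, at 0.05 (SE 0.16, adjusted p 0.814).

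Of the secreted netrins, Ntn4, a netrin of basement membranes, had 7.58, 4.59 and 6.65 CPM in IP replicates 1 to 3, against 3.25, 1.99 and 2.76 CPM in the Input replicates. Its lowest IP library was above its highest Input library, and its upward log2 fold change was the largest of the 68 genes (log2 fold change 1.23, SE 0.29, adjusted p 0.00671). Ntn1, the classic attractant, had 6.60, 12.7 and 5.71 CPM in IP against 7.04, 7.45 and 6.34 in Input, overlapping groups and a log2 change of 0.27 (SE 0.30, adjusted p 0.483). Ntn3 stood at 0.07 (SE 0.37, adjusted p 0.880). Ntn5 was not tested, with 0, 7 and 0 counts in IP and 10, 59 and 3 in Input, and 23.4% of its exon bases lay on the antisense gene Sec1.

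The 4 Unc5 receptors, which turn netrin into a repellent, all passed, 1 higher and 3 lower. Unc5a (chr13:54949411-55006018, plus strand) had 94.4, 73.9 and 62.1 CPM in IP replicates 1 to 3, against 36.8, 46.7 and 26.6 CPM in the Input replicates. All IP libraries were above all Input libraries (log2 fold change 1.06, SE 0.22, adjusted p 0.00419). Unc5b (chr10:60762593-60831581, minus strand), also a receptor of blood vessels, had 8.24, 10.8 and 7.30 CPM in IP replicates 1 to 3, against 29.9, 30.7 and 19.5 CPM in the Input replicates. It was 3.04-fold lower, with no overlap (log2 fold change -1.61, SE 0.22, adjusted p 0.000597; adjusted p 0.0230 against a 2-fold change). Unc5c had 51.9, 58.1 and 33.1 CPM in IP against 82.6, 78.9 and 62.1 in Input and Unc5d had 34.7, 27.0 and 16.0 CPM in IP against 50.4, 58.3 and 39.4 in Input, each with IP below Input. Their log2 fold changes were -0.64 (SE 0.21, adjusted p 0.0297) and -0.93 (SE 0.27, adjusted p 0.0175). Unc5c no longer passed without IP replicate 1, Input replicate 1 or Input replicate 2 (adjusted p 0.0524 to 0.0956), and Unc5d without IP replicate 2 or Input replicate 2 (adjusted p 0.0581 and 0.0635). Of the summed level of Unc5a to Unc5d per kb of exon, Unc5a made up 73.5% ± 3.35 in IP, against 39.2% ± 2.64 in Input (SD, n = 3 each). The shares were 69.8% to 76.3% in IP and 37.5% to 42.2% in Input (exact permutation test, two-sided, p = 0.1, the smallest this design allows). With Unc5a above Input and its relatives below it in every IP library, this separation was fixed by the choice of genes. The shares depend on the exon lengths used. In CPM, Unc5a had 76.8 ± 16.4 of a summed 159 ± 36.6 in IP, against 36.7 ± 10.1 of 187 ± 35.2 in Input.

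Dcc, the attractant receptor of netrin, had 54.1, 51.6 and 34.2 CPM in IP against 41.8, 46.9 and 43.3 in Input, with Input inside the IP range and a log2 change of 0.08 (SE 0.18, adjusted p 0.706). Neo1, neogenin, the Dcc relative that binds repulsive guidance molecules, had 125, 96.8 and 43.4 CPM in IP against 159, 146 and 106 in Input. IP replicate 1 lay within the Input range and IP replicate 3 far below it, and Neo1 did not pass (log2 fold change -0.63, SE 0.34, adjusted p 0.144). Neo1 passed as lower with a replicate block, at -0.74 (adjusted p 0.0130), and it also passed without IP replicate 1 (adjusted p 0.0489). Rgmb, a ligand of neogenin, rose by 1.60 (SE 0.13, adjusted p 5.12e-05), with 82.8, 70.5 and 76.0 CPM in IP against 27.1, 26.7 and 22.0 in Input. Its relative Rgma rose less, by 0.50 (SE 0.17, adjusted p 0.0339). Hfe2, another relative at low level, did not pass at 1.23 (SE 0.47, adjusted p 0.0556). Plxna4os1, the antisense entry, had 0 counts in all 3 IP libraries and 8, 19 and 13 in Input, and was not tested.

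By level per kb of exon, the order of the guidance genes in IP began with Ntng1, Efna5 (20.2 ± 1.20 CPM per kb), Sema7a (18.6 ± 2.26), Unc5a (18.4 ± 3.93) and Sema4f (15.1 ± 1.5), SD over 3 libraries. The neighbours from Efna5 to Sema4f differed by less than the larger of their SDs. In Input the order began with Efnb3 (28.2 ± 2.11), Ntng1 (21.5 ± 4.12), Epha4 (17 ± 1.18), Neo1 (15.7 ± 3.17) and Sema7a (15.5 ± 4.72). The neighbours from Epha4 to Sema7a differed by less than the larger of their SDs. Only Ntng1 and Sema7a were in the top 5 of both orders. Both orders depend on the exon lengths used, which join all annotated exons of a gene. The lowest of those tested in both groups was Robo4, with Robo3 and Epha1 next.

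The guidance genes also varied together between replicates. IP replicate 3 was the lowest of the 3 IP libraries for 49 of the 68 genes (72.1%), against 31.4% of all genes tested. Input replicate 3 was the lowest Input library for 47 of the 68 (69.1%), against 38.4% of all genes. Relative to the mean of replicates 1 and 2, replicate 3 had a median log2 ratio of -0.55 in IP and -0.37 in Input over the guidance genes, and of 0.06 and -0.00 over all genes. Nrp2, Slit2, Plxna4, Robo2 and Neo1, described above, all had this pattern in IP. The drop was shared by the other guidance co-receptors and cues listed below. They summed to 3678, 3409 and 2388 CPM in IP replicates 1 to 3, and to 3204, 3200 and 2589 in Input. Semaphorin effectors summed to 3299, 3191 and 3783 CPM in IP, and Eph effectors to 2015, 2102 and 2003. Slit effectors summed to 3769, 3638 and 3935 CPM in IP, and netrin effectors to 3770, 3725 and 4214. Both replicate 3 libraries carry lane number 1 in their labels, and Input replicate 3 was the library high in striatal and choroid plexus markers and low in dopamine neuron markers. The parts of the lane and of the dissection were not tested.

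**Figure D4:**
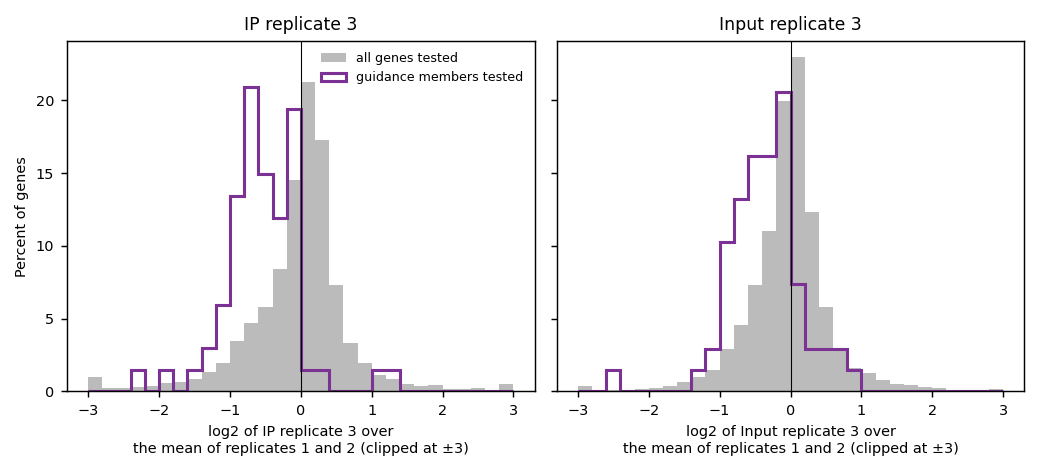
Percent of genes (y axis) by the log2 ratio of replicate 3 to the mean of replicates 1 and 2 (x axis, values beyond ±3 drawn at the edge), in IP on the left and Input on the right, for all genes tested (grey) and the guidance genes (purple line). The guidance genes lie to the left of all genes in both panels, with medians of -0.55 in IP and -0.37 in Input.

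Guidance genes have long joined exons, with a median exon length of 7041 bases, against 4356 over the 15069 tested genes with a length. With all those genes in 4 bins of exon length, the bin of the longest (6729 bases and more) held 37 of the 68 and had a median log2 fold change of -0.22, IP over Input, against 0.36 in the bin of the shortest. In the bin of the longest the median log2 ratio of replicate 3 to replicates 1 and 2 was 0.02 in IP and 0.02 in Input. The part of exon length in the fold changes was not tested.

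Genes that act beside or downstream of these receptors were read from lists of co-receptors and effectors. Of 23 semaphorin and plexin effectors tested, 8 rose, 3 fell and 12 did not pass, and the median log2 fold change was 0.20. The most abundant that rose were Cfl1, the actin-severing protein cofilin (0.60, SE 0.13), its inactivating kinase Limk2 (0.91, SE 0.13), and Cdk5, a kinase of semaphorin signalling (0.93, SE 0.16). Those that fell were Farp1, an exchange factor bound to class A plexins (-0.97, SE 0.12), the small GTPase Rras, a plexin substrate (-1.70, SE 0.28), and Mical1, an actin-oxidising enzyme (-2.17, SE 0.58). Under upper-quartile scaling 5 of these effectors fell.

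Of 20 Eph and ephrin effectors tested, 2 rose, 4 fell and 14 did not pass (median -0.08). Sdcbp, syntenin, a scaffold that binds ephrin-B tails, rose by 0.51 (SE 0.10), and Grip2, another such scaffold, rose by 1.46 (SE 0.23). Tiam1, Ngef and Vav3, exchange factors that act below Eph receptors, had log2 fold changes of -1.18 (SE 0.18), -1.24 (SE 0.32) and -1.16 (SE 0.17). Ngef was highest in Input replicate 3, at 75.3 CPM, against 34.1 and 33.1 in Input replicates 1 and 2.

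Of 17 Slit and Robo effectors, 5 rose, 5 fell and 7 did not pass (median -0.07). The kinase Pak1 rose by 0.93 (SE 0.14), the Rac inhibitor Srgap3 by 0.39 (SE 0.12) and the exchange factor Sos1 by 0.56 (SE 0.10), while their relatives Pak2 and Sos2 and the kinase Abl2 stood at -0.40 (SE 0.13), -0.30 (SE 0.11) and -0.40 (SE 0.12). Under upper-quartile scaling, under scaling by library totals or without Input replicate 1, 3 of this list rose. Of its 5 falls, 1 to 3 were left when IP replicate 1, IP replicate 3 or any Input replicate was dropped.

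Of 20 netrin effectors, 3 rose, 7 fell and 10 did not pass (median 0.00). Pitpna, a lipid transfer protein bound by Dcc, rose by 1.19 (SE 0.15), and the GTPases Rac1 and Cdc42 by 0.29 (SE 0.10) and 0.33 (SE 0.10). The exchange factor Trio, the Dcc-binding ubiquitin ligase Trim9 and the actin-binding protein Ablim1 fell, at -0.68 (SE 0.12), -0.43 (SE 0.12) and -0.43 (SE 0.13). Of this list, 1 rose under upper-quartile scaling and under scaling by library totals. Dropping IP replicate 2 or either of the first 2 Input replicates also left 1 rise, and dropping IP replicate 1 gave 5.

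Of 46 guidance co-receptors and other guidance cues tested, 8 rose, 12 fell and 26 did not pass (median -0.06). Besides Lrrc4c, the most abundant that rose were its relative Lrrc4b (0.89, SE 0.15) and the protocadherin Pcdh17 (0.58, SE 0.13). The most abundant that fell were the receptor phosphatase Ptprd (-1.47, SE 0.21), the Wnt receptor Fzd3 (-0.63, SE 0.16) and the contactin Cntn2 (-1.08, SE 0.20). Without Input replicate 3 or IP replicate 2, 5 of this list rose, and without IP replicate 3, 14 rose. Over all genes tested, 26% rose and 27.9% fell.

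**Figure D5:**
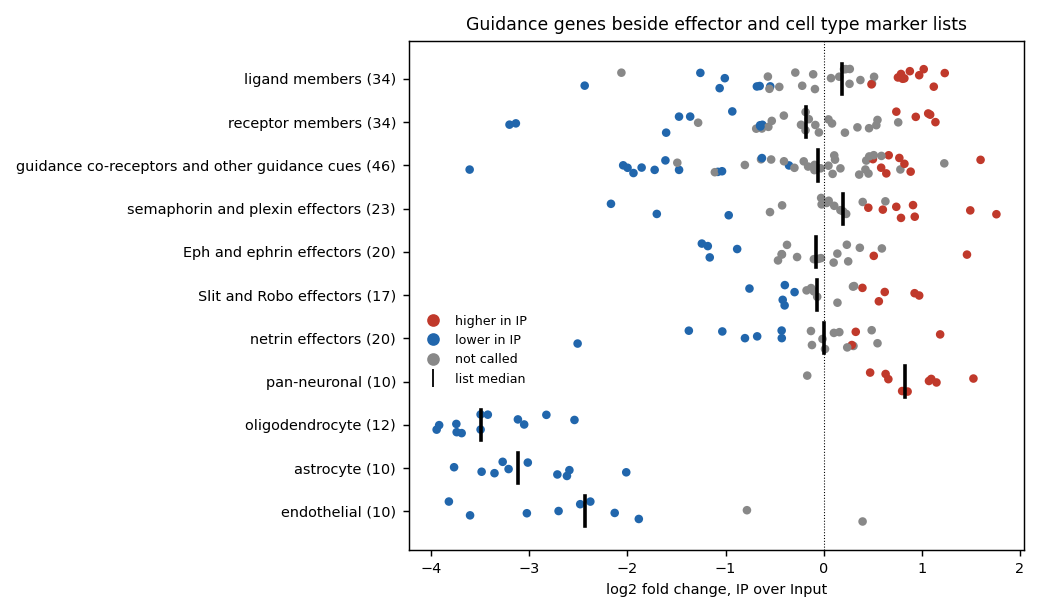
Log2 fold change of IP over Input (x axis) of each tested gene, by list (y axis, number tested in brackets), with list medians as bars and colours for the calls. The guidance ligands and receptors have medians of 0.18 and -0.19, and the pan-neuronal markers of 0.83. The oligodendrocyte, astrocyte and endothelial markers lie at medians of -3.50, -3.11 and -2.43.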

How the data were processed

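RNA of 3 IP and 3 Input libraries was measured by RNA-seq, with groups and replicate numbers from the titles. The deposited values are raw counts per gene symbol, 1 file per library. Per the submitters' processing notes, the tools were STAR 2.0.0e and HTSeq and the build mm10. Neither annotation nor strand setting nor counting mode is given in the sources used here, so antisense overlaps cannot be resolved. Ambiguous reads, left out of gene counts, made up 1.63% ± 0.0460 of all reads in IP and 9.35% ± 1.48 in Input, and reads aligned to several places 44.2% ± 0.402 and 32.5% ± 0.596 (SD, n = 3 each).

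Genes were filtered with filterByExpr (minimum count 10, minimum total 15), which kept 17197 of 32531 entries, and TMM scaling was applied. The test was edgeR's quasi-likelihood F test (version 4.0.16, R 4.3.3, robust fit, two-sided, with group alone in the model). P-values were adjusted by Benjamini-Hochberg over all genes tested, with a threshold of 0.05, and changes over 2-fold were tested with glmTreat. The SE is the size of the log2 fold change over the square root of F. Levels per kb divide CPM by the exon length of GENCODE M21 (GRCm38, the assembly of mm10), which also gave positions and antisense overlaps. Promoter windows are RefSeq's.

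The members, lists and tests were chosen with earlier results of these data known, so a list's count is no independent evidence. Lack of overlap between groups describes the values of a called gene and adds no evidence to its call. Values in every library are given, in each family, for up to 3 risen and 3 fallen genes of highest level. They are also given for those of largest and smallest change, the most abundant one that did not pass, and others where they help. From each effector list, the 3 most abundant in each direction were named. Lrrc4 and Rgmb were named as partners of members, and Rgma and Hfe2 as relatives of Rgmb. IP and Input libraries of 1 number share a lane number in the labels, so the numbers were taken as pairs for a replicate block. The correlations of their deviations from the group means were 0.155, 0.0744 and 0.0506, each higher than with any other number. Replicates correlated at 0.971 to 0.985 (log CPM, across genes) and no library was a copy of another. Also tried were scaling by RLE, upper quartile or library totals, other filters, DESeq2 1.42.0, limma-voom (limma 3.58.1), the replicate block and leaving out libraries.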

Additional observations from a re-analysis of the deposited data

How the results depend on the processing

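Over 15 alternatives, 0 of the 31 called guidance genes changed sign, and 18 kept their call in all of them: Efna5, Epha8, Ephb6, Nrp2, Ntn4, Sema4g, Sema6c and Unc5a as higher, and Efnb3, Epha3, Epha6, Ntng2, Plxnb1, Plxnb3, Sema3d, Sema3e, Sema6a and Unc5b as lower. Of the 37 not called, 12 passed in 1 or more alternatives. With a replicate block 19 guidance genes were higher and 19 lower: it kept all 31 calls and added the 7 named in the report. Leaving out 1 library at a time gave 10 to 21 higher and 10 to 16 lower, with 0 to 1 past 2-fold upward and 2 to 6 downward. The count of 10 lower came without Input replicate 2, and that of 10 higher without IP replicate 2. The count of 21 higher came without IP replicate 3, with 15 lower and 1 past 2-fold upward. IP replicate 2 was high in Purkinje and cerebellar markers, and Input replicate 3 in striatal and choroid plexus markers. Without both, 8 guidance genes were higher and 17 lower. Upper-quartile scaling gave 3429 genes higher and 5567 lower over all genes, against 4467 and 4794. The median log2 fold change of all genes was -0.17 with upper-quartile scaling, -0.15 with library totals alone and -0.22 with no filter, and the signs of the family medians were the same under every scaling tried. Genes with few counts, such as Robo4, Efna1, Epha1, Robo3 and Sema3b, are limited by depth. The causes of the changed calls were not tested.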

Other observations

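RefSeq promoter windows were found for 62 of the 73 guidance genes. A GC box (GGGCGG or CCGCCC) was in 14 of 15 windows of genes that rose, in 7 of 13 of genes that fell and in 22 of 30 of genes that did not pass, beside 35.9% of all 27025 windows. The Sox core (CATTGT or ACAATG) was in 1 of 15, 2 of 13 and 4 of 30, beside 12.8% of all windows, and TAATTA in 0 of 15, 0 of 13 and 3 of 30, beside 5.31%. These counts are descriptions of a 300-base window at 1 start per gene, with no test. The 27025 windows were not limited to genes tested here, so their shares are no matched background.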
